A study of Mus musculus with 8 samples.

Results

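The genes described here are the interleukins, the TNF superfamily, the CXC chemokines, the chemokine receptors and the cytokines Lif and Osm with their receptors, ligands and receptors together. They were chosen by name, as every locus of the deposited gene table whose gene name begins with Il, Tnfsf, Tnfrsf, Cxcl, Cxcr, Ccr or Ackr and a digit, or with Lif or Osm. This gave 134 genes of 76557 loci, of which 49868 carry a gene name. The samples were mesenchymal stem cells (MSc) from the femurs and tibiae of 4 wildtype mice (C57Bl6/J) and 4 Has-tKO mice, which lack the hyaluronan synthases Has1 and Has3 constitutively and lose Has2 in culture when 4-hydroxytamoxifen induces Cre. Cells of both genotypes were grown for 4 passages, got 48 h of 4-hydroxytamoxifen in both passage 2 and passage 3, and were sampled on day 7 of osteogenic culture. No source used here states the promoter that drives Cre, whether the wildtype mice carry it, or the age of the mice. The labels give 8 mice, and each library has a cell line number of its own. Levels are deposited FPKM values (fragments per kilobase of transcript, normalised to the library's total), and each pair of group values is the mean ± SD (n = 4) first of wildtype and then of Has-tKO.

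Cytokines are secreted or membrane-bound proteins by which cells of the marrow, the stroma and the blood signal to each other. CXC chemokines attract leukocytes through receptors of the Cxcr family, interleukins of the IL-6 family signal through the shared receptor chain Il6st to STAT transcription factors, and receptors of the IL-1 and TNF families activate NF-kappaB. In bone, stromal cells make Cxcl12, which holds blood-forming cells in the marrow, as well as the osteoclast-inducing ligand RANKL (Tnfsf11) and its soluble decoy receptor osteoprotegerin (Tnfrsf11b).

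Of the 134 genes, 41 reached 1 FPKM in 4 or more libraries and were tested, 60 were detected below that level, and 33 were listed at 0 in all 8 libraries. The 41 included 6 of 12 CXC chemokines, 5 of 20 chemokine receptors, 12 of 24 genes of the TNF superfamily, 6 of 12 of the IL-6 family, 5 of 18 of the IL-1 family, 2 of 10 of the IL-17 family, 1 of 10 of the IL-10 family and 4 of 26 other interleukin genes. The 2 antisense transcripts that the name rule also takes in, Il1bos and Tnfsf13os, did not reach the level. Cxcl5, Il1rn, Il1r1, Il34, Il10rb, Lifr, Tnfrsf1b and Tnfsf12 were not analysed here, because no locus carries these names. Each of the 41 tested genes stands on a locus with an identifier of the StringTie kind, and such a locus can hold reads of a neighbouring or antisense gene.

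The cytokine system genes that passed the test were all higher in Has-tKO. They included the neutrophil chemokines Cxcl1 and Cxcl2, the chemokine Cxcl14, the chemokine receptor Cxcr4, the interleukin receptors Il21r and Il4ra, and from the TNF superfamily the receptor Tnfrsf12a and the ligand Tnfsf9. These are 9 of 41, and none was lower (limma on log2(FPKM + 1), adjusted p under 0.05 over all 9916 genes tested). Of all tested genes 1.58% were higher and 0.192% lower by the same rule. After median-ratio scaling of the libraries 7 of the 9 passed again, all but Il4ra and Tnfsf9, and no other member did, where 1.36% of all tested genes were higher and 1.29% lower. The log2 fold change over the 41 genes ran from -0.25 to 1.72, with a median of 0.60, where the median of all tested genes was 0.16. After scaling these medians were 0.39 and -0.03. In 12 of the 41 genes the Has-tKO libraries all lay above the wildtype libraries, and in 0 all below, where 12.0% and 1.53% of all tested genes did so. Cxcl2 and Osm reached the filter through the Has-tKO libraries alone, as did 43 of the 9916 genes, and had to differ for that reason, so these counts and medians are a description.

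**Figure D1:**
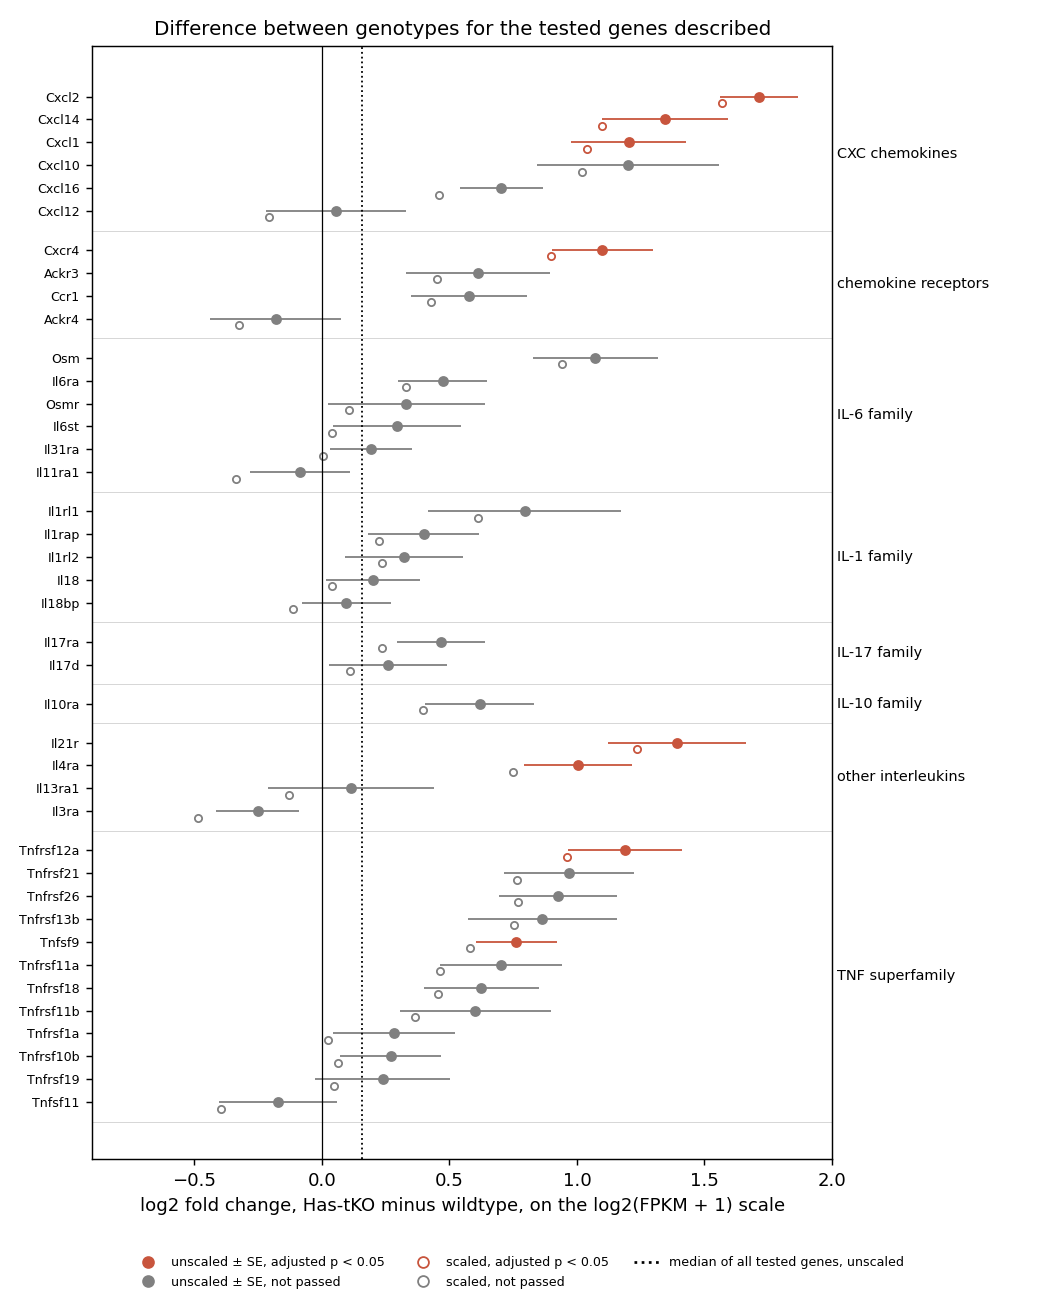
Log2 fold change (Has-tKO minus wildtype, from log2(FPKM + 1), horizontal axis) of the tested genes described here, grouped by family, as filled points with SE for the unscaled fit and open points for the scaled fit, red where adjusted p was under 0.05. The 8 red filled points lie between 0.76 (Tnfsf9) and 1.72 (Cxcl2), and the dotted line marks the median of all tested genes at 0.16.

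Some facts of the whole series bear on every value. Of the targeted genes only Has3 carries a name in the table, at 0.236, 0.415, 0.466 and 0.394 FPKM in wildtype and 0.663, 0.576, 0.621 and 0.150 FPKM in Has-tKO. Its level was not lower in the Has-tKO libraries, and since no source used here states which part of the gene is deleted, it does not check the labels. Wildtype 1 stood apart with a size factor of 0.660, where the other libraries had 0.984 to 1.14, and it was the lowest wildtype library for 32 of the 41 genes. The mesenchymal markers Vim and Pdgfra lay at 348 ± 51.1 and 17.8 ± 3.68 FPKM in wildtype and at 339 ± 35.7 and 18.6 ± 2.40 FPKM in Has-tKO. Other mesenchymal markers were less alike. Cd44 had 25.7 ± 9.15 and 40.5 ± 6.91 FPKM, and Eng had 4.58 ± 2.20 and 6.77 ± 2.29 FPKM. Nt5e was lower in Has-tKO, at 5.42 ± 2.36 and 3.59 ± 1.35 FPKM. Of 9 tested mesenchymal markers none passed either fit, and 6 had a positive difference without scaling and 4 with it. Macrophage markers were present in all libraries and moved with the genotype. The summed level of the 17 named markers was 390 to 666 FPKM in wildtype and 656 to 1070 FPKM in Has-tKO, 1.89 times as high on average, and Spi1, Cd52 and Mertk passed the test. Has-tKO was higher for 16 of 16 tested macrophage markers in the unscaled fit, where 3 passed, and 1, Mertk, passed after scaling. In the unscaled fit 73.3% of all tested genes also had a positive difference. After scaling 44.9% of them did, and 16 of the 16 markers. None of the 17 was at 0. Of 10 neutrophil markers none reached the level for the test and 5 were listed at 0 in all 8 libraries (S100a9, Ly6g, Elane, Ltf and Retnlg). The summed level of the 10 was 0.866 to 3.57 FPKM in wildtype and 1.24 to 2.59 FPKM in Has-tKO. Camp, the highest of them in wildtype, had 3.10, 0.580, 1.24 and 0.255 FPKM in wildtype and 0.751, 0.970, 0.549 and 0 FPKM in Has-tKO. Csf3r, the G-CSF receptor, was higher in all Has-tKO libraries, with 0, 0.566, 0.804 and 0.305 FPKM in wildtype and 1.84, 1.30, 0.884 and 1.24 FPKM in Has-tKO. Also listed at 0 in all libraries were 6 of 10 markers of T and NK cells (Cd3e, Cd3d, Cd3g, Cd8a, Cd2 and Klrb1c) and 4 of 6 of mast cells (Mcpt4, Tpsb2, Fcer1a and Ms4a2). Some markers of skeletal cells were lower in Has-tKO. The summed level of 7 named osteoblast markers was 254.4 to 540.3 FPKM in wildtype and 176.8 to 263.5 FPKM in Has-tKO. That sum rests most on Ibsp (296 ± 97.9 and 147 ± 22.6 FPKM) and Alpl (121 ± 29.3 and 67.4 ± 12.8 FPKM). Of 6 tested osteoblast markers none passed without scaling, and after it Alpl (-1.07, adjusted p = 0.0139) and Ibsp (-1.21, adjusted p = 0.0142) fell. Dmp1, the 1 of the 6 with higher values in Has-tKO, had 5.47 ± 1.64 and 9.20 ± 3.63 FPKM (0.62, adjusted p = 0.261, after scaling 0.39, adjusted p = 0.418). Dlx5, below the level for the test, had 0.776 ± 0.331 and 0.959 ± 0.489 FPKM. Of 4 tested chondrocyte markers Col9a1 fell in both fits (-0.89, adjusted p = 0.0488, and -1.09, adjusted p = 0.0431 after scaling) and Sox9 after scaling (-1.01, adjusted p = 0.00998). In such bulk samples, fewer cells of a type and less RNA per cell cannot be told apart. The part of any of these marker lists in the values of the cytokine genes was not tested.

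The 250 bases before the start of the 3 CXC chemokines that passed are shown, because Cxcl1 and Cxcl2 are direct neighbours on chromosome 5 and rose together, while Cxcl14 lies on chromosome 13. They are RefSeq promoters of build GRCm38.p6, at chr5:90890995-90891244 (+), chr5:90903649-90903898 (+) and chr13:56296552-56296801 (-). Capitals mark matches, on either strand, to a strict kappaB pattern (GGG, then 2 of any base, then TTTCC), a looser one (GGG, then 3 of any base, then TTCC) or the AP-1 letters TGANTCA. Every strict match is also a loose one, and loose matches on both strands overlap.
Cxcl1: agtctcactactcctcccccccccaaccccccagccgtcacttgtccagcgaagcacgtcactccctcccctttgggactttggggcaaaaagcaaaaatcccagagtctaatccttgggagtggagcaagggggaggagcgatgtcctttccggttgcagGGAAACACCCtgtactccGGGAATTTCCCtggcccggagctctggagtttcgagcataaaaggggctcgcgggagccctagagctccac
Cxcl2: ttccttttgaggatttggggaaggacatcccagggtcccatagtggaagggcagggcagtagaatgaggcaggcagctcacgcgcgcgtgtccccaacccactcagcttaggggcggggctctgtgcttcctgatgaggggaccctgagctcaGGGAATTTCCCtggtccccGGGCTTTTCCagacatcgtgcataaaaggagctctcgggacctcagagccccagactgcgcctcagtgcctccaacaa
Cxcl14: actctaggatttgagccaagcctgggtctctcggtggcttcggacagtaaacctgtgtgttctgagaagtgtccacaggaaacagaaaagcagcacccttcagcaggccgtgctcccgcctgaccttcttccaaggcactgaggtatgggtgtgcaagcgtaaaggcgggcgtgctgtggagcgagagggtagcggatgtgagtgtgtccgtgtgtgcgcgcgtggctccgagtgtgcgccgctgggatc

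Cxcl1 and Cxcl2 share the letters GGGAATTTCC, whose first base lies 71 bases before the start in Cxcl1 and 97 bases before it in Cxcl2. Cxcl2 holds a further match, GGGCTTTTCC, from base 78 before the start, and Cxcl1 holds one on the other strand, GGAAACACCC, from base 89. The window of Cxcl14 holds none of the 3 patterns. Of 32851 RefSeq promoters 1.41% hold the strict kappaB pattern, 4.65% the looser one and 6.75% TGANTCA in a window of the same length. Promoters were found for 105 of the 134 genes, and 8, 12 and 20 of these hold the 3 patterns in that order. These are counts of genes with a match in any of their promoters, whereas the percentages are shares of single promoters (32851 for 27025 genes). The 2 are therefore not directly comparable. Among the 9 genes that passed, 7 have a promoter in the table, and Cxcl1 and Cxcl2 hold a kappaB match while Cxcr4, Il21r, Il4ra, Tnfrsf12a and Cxcl14 hold none of the 3. Of 32 tested genes with a promoter, 3 hold the looser kappaB pattern: Cxcl1, Cxcl2 and Cxcl10, which did not pass. Cxcl10 is also the 1 tested gene that holds TGANTCA. A match is a string of letters and not a measured binding site.

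Among the ligands, Cxcl2, which attracts neutrophils, changed most. Its level was 0.295, 0.298, 0.306 and 0.131 FPKM in wildtype 1 to 4 and 3.67, 3.39, 2.94 and 2.57 FPKM in Has-tKO 1 to 4. All Has-tKO libraries lay far above all wildtype libraries. On average the level was 12.2 times as high (log2 fold change 1.72, SE 0.15, limma adjusted p = 0.000635), and after scaling the difference was 1.57 (adjusted p = 0.00178). Because Cxcl2 reached the filter through the Has-tKO libraries alone, these p-values are a description. With a filter on the mean over all libraries instead (at least 0.1 FPKM) the adjusted p was 0.00189, and with no filter 0.0195. The related neutrophil chemokine Cxcl1 had 0.608, 1.12, 2.20 and 1.50 FPKM in wildtype and 5.25, 3.06, 3.91 and 5.16 FPKM in Has-tKO. The groups did not overlap, and Has-tKO was 3.20 times as high (1.20, SE 0.23, adjusted p = 0.0244, with scaling 1.04, adjusted p = 0.0310). Of the 50-base words in Cxcl2 transcripts 5.84% also occur in Cxcl3, its close relative, and 0% of those in Cxcl1 occur in another gene. Cxcl3 itself stayed between 0.0144 and 0.310 FPKM in all 8 libraries.

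Cxcl14, a chemokine made by epithelial and stromal cells, also rose. It had 8.94, 14.8, 22.6 and 11.1 FPKM in wildtype and 30.3, 32.9, 39.2 and 42.7 FPKM in Has-tKO. The highest wildtype library, wildtype 3, stayed below all Has-tKO libraries (2.53 times as high on average, log2 fold change 1.35, SE 0.25, adjusted p = 0.0234, after scaling 1.10, adjusted p = 0.0271). The membrane-bound chemokine Cxcl16, a ligand of Cxcr6 that also takes up lipids, had 7.94 to 11.9 FPKM in wildtype and 14.7 to 17.7 FPKM in Has-tKO, without overlap. It missed the threshold by a little (log2 fold change 0.70, SE 0.16, adjusted p = 0.0513), and by more with scaling (0.46, adjusted p = 0.101). Part of its signal is uncertain, since 16.9% of its 50-base words also occur in its neighbour Zmynd15. The interferon-induced Cxcl10 was uneven in Has-tKO, with 5.17, 1.49, 6.09 and 1.32 FPKM, against 0.235 to 1.34 FPKM in wildtype. The groups overlapped slightly, and the gene did not pass (log2 fold change 1.20, SE 0.36, adjusted p = 0.109).

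Cxcl12, which retains blood-forming cells in the marrow, was by far the most abundant member. It lay at 120, 273, 298 and 201 FPKM in wildtype and at 154, 255, 234 and 248 FPKM in Has-tKO. The groups overlapped widely, and the log2 fold change was 0.05 (SE 0.28, adjusted p = 0.935) without scaling and -0.21 (adjusted p = 0.631) with it. Of its receptors, Cxcr4 rose: it had 1.62, 3.29, 2.74 and 1.94 FPKM in wildtype and 7.00, 7.16, 6.16 and 4.57 FPKM in Has-tKO. All Has-tKO libraries lay above all wildtype libraries (2.60 times as high, log2 fold change 1.10, SE 0.20, adjusted p = 0.0219, after scaling 0.90, adjusted p = 0.0184). The scavenging receptor Ackr3, which also binds Cxcl12, had 2.63 ± 1.34 and 4.23 ± 0.785 FPKM and did not pass (0.61, adjusted p = 0.303).

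**Figure D2:**
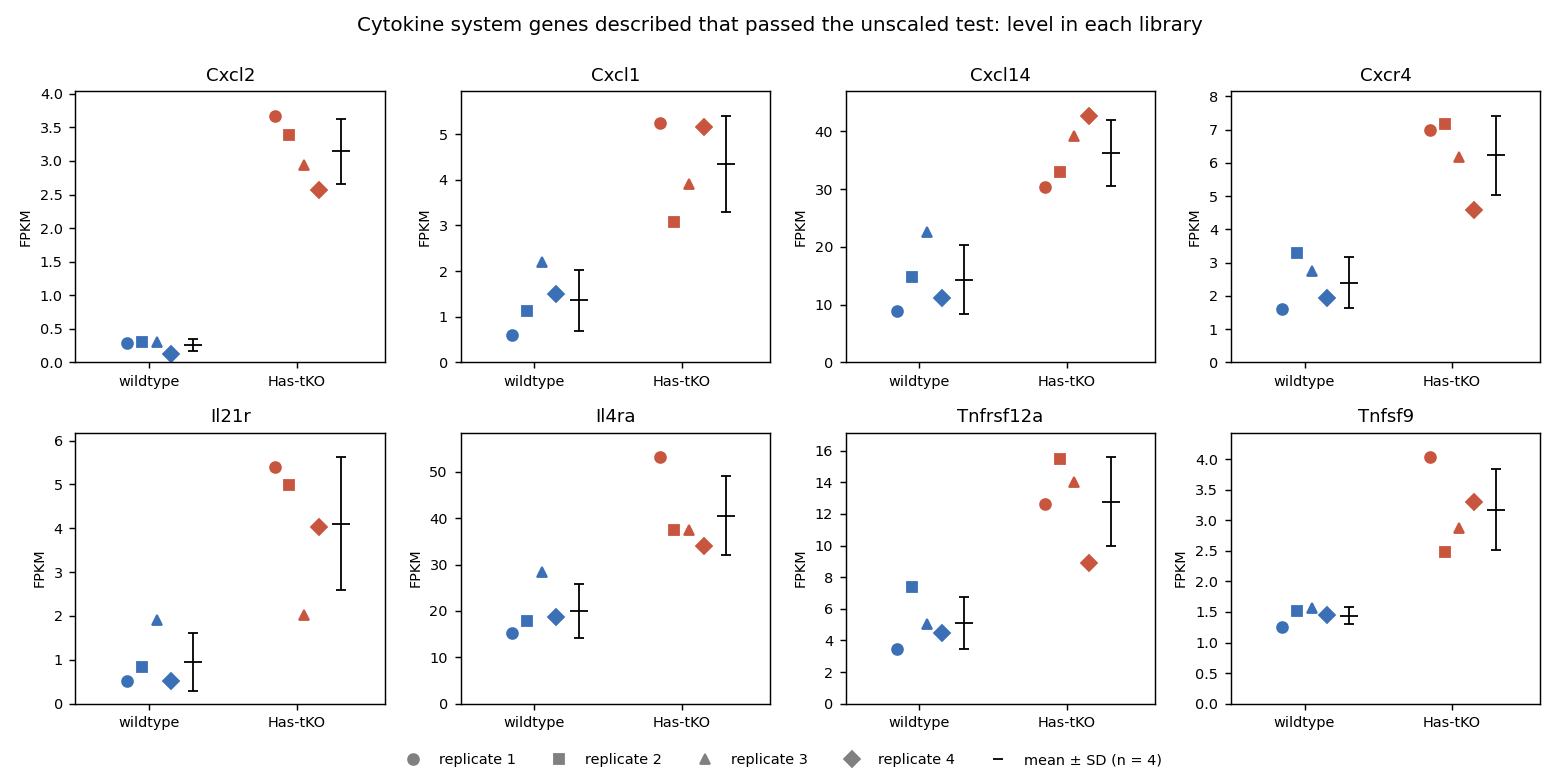
FPKM (vertical axis, linear, from 0) of 8 genes that passed the unscaled test, in each wildtype and Has-tKO library, with symbols for the replicate and a bar for the mean ± SD (n = 4). In every panel the 4 Has-tKO points lie above the 4 wildtype points, with the smallest gap in Il21r (1.91 in wildtype 3 and 2.02 in Has-tKO 3). As a ratio the gap is widest in Cxcl2 (0.306 in wildtype 3 and 2.57 in Has-tKO 4).

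Ccr2, the receptor of Ccl2 on monocytes, was also higher in Has-tKO. It lay below the level for the test, at 0.0482, 0.296, 0.115 and 0.0784 FPKM in wildtype and 1.18, 1.86, 0.783 and 1.26 FPKM in Has-tKO. With the filter lowered to a mean of 0.1 FPKM, which let 75 of the 134 genes in, Ccr2 rose (0.99, SE 0.16, adjusted p = 0.0385). By that rule 4 members rose, among them Ccr2, Cxcl2 and Cxcr4, and none fell, where 0.341% of 18187 genes were higher and 0.0330% lower. Of the 50-base words of Ccr2 transcripts 1.91% occur in another gene. Ccr1, another receptor of inflammatory chemokines, had 1.23 ± 0.465 and 2.37 ± 0.849 FPKM and did not pass (0.58, adjusted p = 0.222). The scavenging receptor Ackr4 had 2.12 ± 0.940 and 1.73 ± 0.761 FPKM (-0.18, adjusted p = 0.750).

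Another pair of neighbours, Il4ra and Il21r, rose as well. Il4ra, the receptor chain shared by IL-4 and IL-13, had 15.1, 17.7, 28.3 and 18.6 FPKM in wildtype and 53.1, 37.5, 37.5 and 34.0 FPKM in Has-tKO. The groups did not overlap (2.03 times as high, log2 fold change 1.0, SE 0.21, adjusted p = 0.0395), but Il4ra missed the threshold after scaling (0.75, adjusted p = 0.0619). Il21r, the receptor of IL-21 on lymphoid and myeloid cells, had 0.515, 0.825, 1.91 and 0.524 FPKM in wildtype and 5.41, 4.99, 2.02 and 4.02 FPKM in Has-tKO. Wildtype 3 and Has-tKO 3 nearly met (log2 fold change 1.39, SE 0.27, adjusted p = 0.0280, after scaling 1.24, adjusted p = 0.0393). Of the 50-base words of Il4ra 8.44% also occur in Gm44876 and those of Il21r almost nowhere else (0.238%). Il13ra1, the partner of Il4ra in the receptor of IL-13, lay at 18.7 ± 7.73 and 19.3 ± 5.47 FPKM, with a log2 fold change of 0.11 without scaling and -0.13 with it (adjusted p = 0.883 and 0.825). The genes of the ligands IL-4, IL-13 and IL-21 did not reach the level for the test.

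In the TNF superfamily Tnfrsf12a, the receptor of the cytokine TWEAK, had 3.48, 7.37, 5.03 and 4.48 FPKM in wildtype and 12.7, 15.5, 14.0 and 8.90 FPKM in Has-tKO. Has-tKO 4 was the lowest of its group and still above wildtype 2 (2.51 times as high, log2 fold change 1.19, SE 0.22, adjusted p = 0.0241, after scaling 0.96, adjusted p = 0.0258). Tnfsf9, the costimulatory ligand of Tnfrsf9, had 1.25, 1.51, 1.56 and 1.44 FPKM in wildtype and 4.03, 2.49, 2.87 and 3.30 FPKM in Has-tKO. The wildtype libraries lay close together and below all others (log2 fold change 0.76, SE 0.16, adjusted p = 0.0384), and after scaling the adjusted p was 0.0607. Part of the signal of Tnfsf9 is uncertain, since 11.5% of its 50-base words also occur in Gm11110. Tnfrsf26, another receptor of the superfamily, also had groups that did not overlap, at 0.663 to 2.62 and 3.40 to 4.24 FPKM (0.93, adjusted p = 0.0640, after scaling 0.77, adjusted p = 0.0619). Tnfrsf21 had 2.86 ± 1.07 and 6.62 ± 2.19 FPKM (0.97, adjusted p = 0.0740), and the main TNF receptor Tnfrsf1a lay at 69.2 ± 22.1 and 80.5 ± 4.37 FPKM (0.28, adjusted p = 0.574). The other tested receptors Tnfrsf10b, Tnfrsf13b, Tnfrsf18 and Tnfrsf19 did not pass in either fit (0.24 to 0.86).

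RANKL, osteoprotegerin and RANK control the formation of osteoclasts, and none of the 3 genes passed alone. RANKL (Tnfsf11) had 4.96, 8.75, 10.6 and 7.10 FPKM in wildtype and 5.17, 6.18, 9.55 and 6.25 FPKM in Has-tKO (a difference of -0.17 on the log2 scale, SE 0.23, adjusted p = 0.736). Osteoprotegerin (Tnfrsf11b), which binds RANKL and keeps it from its receptor, had 4.78, 15.8, 13.2 and 12.2 FPKM in wildtype and 16.3, 20.6, 18.0 and 12.6 FPKM in Has-tKO (0.60, SE 0.30, adjusted p = 0.333). RANK (Tnfrsf11a), the receptor on osteoclast precursors, had 6.18 ± 1.64 and 10.8 ± 3.61 FPKM (0.70, adjusted p = 0.156). Each gene overlapped between the genotypes.

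The quotient of the FPKM of Tnfsf11 and Tnfrsf11b, which does not change when a library is rescaled, was 1.04, 0.553, 0.805 and 0.580 in wildtype and 0.317, 0.300, 0.532 and 0.496 in Has-tKO. All 4 Has-tKO libraries lay below all 4 wildtype libraries, although wildtype 2 and Has-tKO 3 were close. The mean was 0.744 ± 0.226 in wildtype and 0.411 ± 0.119 in Has-tKO, a difference of -0.85 on the log2 scale (two-sided exact permutation test, p = 0.0286, which is the lowest value that 4 against 4 libraries allow). This quotient was chosen after the values had been seen. With 1 library left out the difference ran from -0.99 to -0.68, the latter without wildtype 1. The osteoclast gene Acp5 in the same libraries had 31.1 ± 18.1 and 10.1 ± 4.63 FPKM (-1.47, adjusted p = 0.0653) and passed after scaling (-1.71, adjusted p = 0.0497), though in none of the 8 scaled fits with 1 library left out (0.0504 to 0.164). The values of the osteoclast markers did not share a direction. Of the 4 tested, Acp5 and Mmp9 (-1.23, adjusted p = 0.131) had lower values in Has-tKO, and Nfatc1 (0.25, adjusted p = 0.540) and Atp6v0d2 (0.13, adjusted p = 0.832) had higher ones without scaling. After scaling 1 of the 4 had a positive difference, and Atp6v0d2 stood at -0.11 (adjusted p = 0.870). Of those below the level for the test, Dcstamp had 0.648 ± 0.226 and 1.01 ± 0.623 FPKM. Calcr was lower in Has-tKO, at 0.146 ± 0.179 and 0.0421 ± 0.0553 FPKM. So was Ocstamp, at 0.155 ± 0.124 and 0.0369 ± 0.0738 FPKM. The summed level of the 7 named osteoclast markers was 34.3 to 107 FPKM in wildtype and 24.4 to 48.4 FPKM in Has-tKO. The part of osteoclasts, osteoblasts and chondrocytes in the quotient was not tested.

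**Figure D3:**
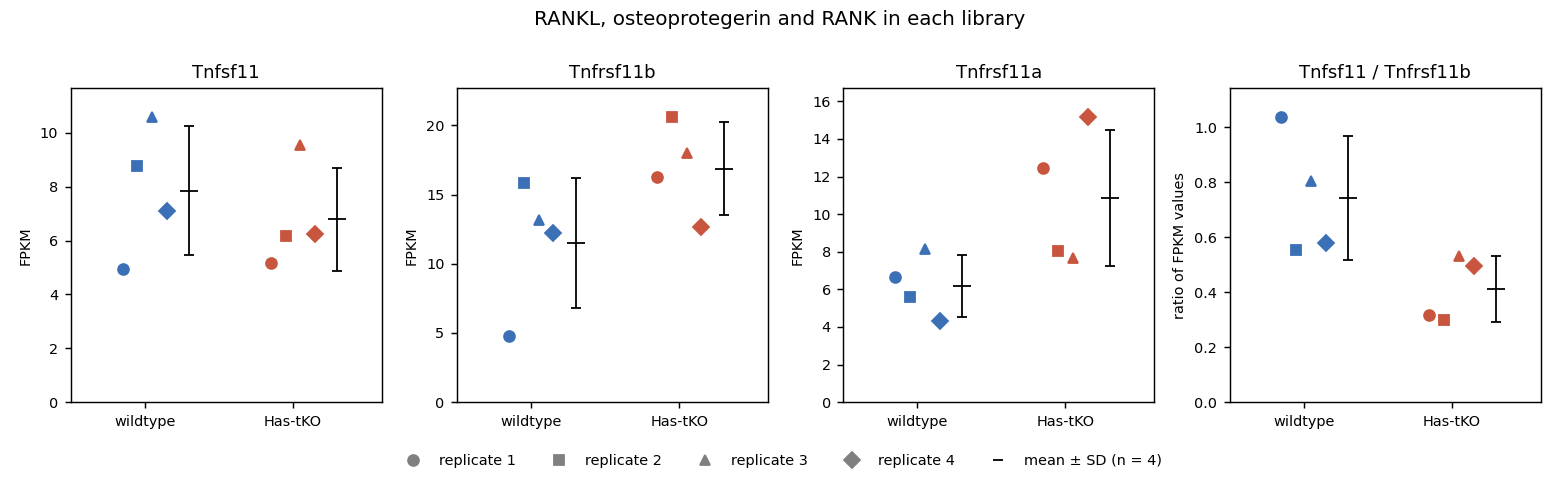
FPKM (vertical axis, linear) of RANKL (Tnfsf11), osteoprotegerin (Tnfrsf11b) and RANK (Tnfrsf11a), and the quotient of the first and the second, in each wildtype and Has-tKO library, with symbols for the replicate and a bar for the mean ± SD (n = 4). The 3 genes overlap between the genotypes, whereas the quotients lie at 0.553 or above in wildtype and at 0.532 or below in Has-tKO.

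In the IL-6 family the ligands had at most 2.01 FPKM as a group mean, while of the receptor genes Il6st, Il11ra1 and Osmr lay well above that level and Il27ra and Il6ra below it. Oncostatin M (Osm), a ligand made by myeloid cells, had 0.387, 0.271, 0.953 and 0.0603 FPKM in wildtype and 3.12, 1.63, 2.25 and 1.03 FPKM in Has-tKO. Osm reached the filter through the Has-tKO libraries alone, so its groups could not overlap and its p-values are a description. It missed the threshold without scaling (log2 fold change 1.07, SE 0.25, adjusted p = 0.0508) and with it (0.94, adjusted p = 0.0779). Its neighbour Lif, which keeps stem cells undifferentiated and acts on osteoblasts, stayed below the level for the test, at 0.424, 0.304, 0.239 and 0.110 FPKM in wildtype and 1.39, 1.65, 1.55 and 0.693 FPKM in Has-tKO. The lowest Has-tKO library lay above the highest wildtype library, though not after scaling, and with the filter lowered to a mean of 0.1 FPKM the adjusted p was 0.0707 (0.85, SE 0.17). Il6 itself was listed at 0 in 6 libraries and at 0.283 and 0.252 FPKM in Has-tKO 1 and 3, and Il11 reached at most 0.313 FPKM.

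The receptor chains of the family did not pass in either fit. The shared chain Il6st had 40.8 ± 13.1 and 48.4 ± 7.84 FPKM (log2 fold change 0.29, adjusted p = 0.581), and the oncostatin M receptor Osmr had 9.27 ± 3.92 and 11.2 ± 2.46 FPKM (0.33, adjusted p = 0.610). Il6ra, the chain that binds IL-6, had 1.14 ± 0.370 and 1.95 ± 0.356 FPKM (0.47, adjusted p = 0.190), and Il31ra had 2.44 ± 0.420 and 2.93 ± 0.478 FPKM (0.19, adjusted p = 0.574). Il11ra1, the receptor of IL-11, had 12.2 to 23.6 FPKM in wildtype and 13.3 to 16.0 FPKM in Has-tKO (-0.09, adjusted p = 0.854), and its level is uncertain because 46.3% of its 50-base words also occur in near-identical copies.

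In the IL-1 family 5 genes were tested and none passed in either fit. Il1rl1, the receptor of IL-33, had 4.29 ± 2.45 and 7.62 ± 2.82 FPKM (0.80, SE 0.38, adjusted p = 0.317), and its ligand Il33 stayed at or below 0.508 FPKM. The accessory chain Il1rap had 2.51 ± 1.03 and 3.48 ± 0.393 FPKM (0.40, adjusted p = 0.377). Il18 had 1.86 ± 0.576 and 2.23 ± 0.308 FPKM (0.20, adjusted p = 0.609). Its soluble inhibitor Il18bp had 4.12 ± 0.968 and 4.42 ± 0.543 FPKM, at 0.10 without scaling and -0.11 with it (adjusted p = 0.808 and 0.657). Il1b, the main inflammatory ligand of the family, was listed at 0 in 6 libraries and at 0.216 FPKM at most. Il1rl2, the receptor of the IL-36 cytokines, had 0.711 ± 0.394 and 1.13 ± 0.475 FPKM (0.32, adjusted p = 0.504). Of the other families, the receptors Il17ra (log2 fold change 0.47, adjusted p = 0.190), Il10ra (0.62, adjusted p = 0.162) and Il3ra (-0.25, adjusted p = 0.461), did not pass, nor did the ligand Il17d (0.26, adjusted p = 0.597). Il15, a growth factor of lymphocytes, stayed below the level for the test, at 0.287 to 0.884 FPKM in wildtype and 0.561 to 0.973 FPKM in Has-tKO.

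Of 60 cytokine system genes detected below the level for the test, 4 had all Has-tKO libraries above all wildtype libraries: Ccr2, Lif, the T cell costimulatory ligand Tnfsf18 and the IL-7 receptor Il7r. None had all of them below. Of 17304 named genes detected below that level 1.92% were higher in this way and 0.699% lower. Tnfsf18 was listed at 0 in all wildtype libraries and had 0.894, 0.171, 0.152 and 0.771 FPKM in Has-tKO (adjusted p = 0.211 with the lowered filter). Il7r had 0.542 ± 0.213 and 1.01 ± 0.141 FPKM (adjusted p = 0.320 with the lowered filter), and its groups overlapped after scaling. The depth behind such low values is unknown.

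**Figure D4:**
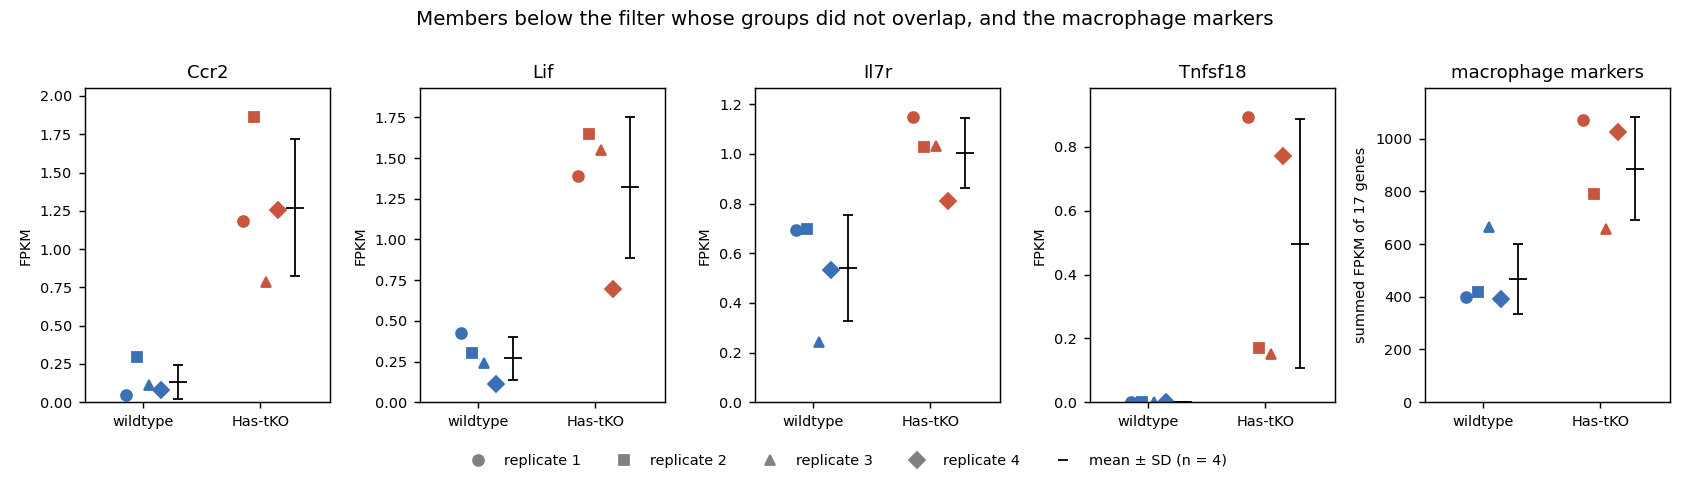
FPKM (vertical axis, linear) of Ccr2, Lif, Il7r and Tnfsf18, and the summed FPKM of 17 macrophage markers, in each wildtype and Has-tKO library, with symbols for the replicate and a bar for the mean ± SD (n = 4). Tnfsf18 lies at 0 in all wildtype libraries, and the marker sum of wildtype 3 (666) lies just above that of Has-tKO 3 (656).

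The macrophage marker sum was 1.89 times as high in Has-tKO as in wildtype, and the 9 genes that rose were 2.03 (Il4ra) to 12.2 (Cxcl2) times as high. The single markers ran from 1.36 (Cd68) to 2.99 (Mrc1) times as high, so their range and that of the 9 genes overlap. The sum rests most on C1qb, with 121 to 229 FPKM in wildtype and 180 to 360 FPKM in Has-tKO. The 3 markers that passed were 2.45 (Mertk), 2.32 (Cd52) and 2.20 (Spi1) times as high. Wildtype 3, which had the highest marker sum in wildtype, was also the highest wildtype library for 7 of the 9 genes. It was so for 22 of all 41 tested members. Wildtype 3 and Has-tKO 3 had nearly the same marker sum (666 and 656 FPKM), and between these 2 libraries Has-tKO 3 was 9.63 times as high for Cxcl2, 2.79 for Tnfrsf12a, 2.25 for Cxcr4, 1.84 for Tnfsf9, 1.77 for Cxcl1, and 1.74 for Cxcl14. It was 1.33 times as high for Il4ra and 1.06 for Il21r. The single markers were not alike in this pair: Has-tKO 3 was 1.98 times as high for Aif1, 1.58 for Mertk, 1.55 for Cd14, 1.52 for Cd52, 1.45 for Spi1 and 1.41 for Cybb, against 0.788 for C1qb, 0.760 for Mrc1 and 0.590 for Fcgr1. These are values of 1 pair of libraries, chosen after the sums had been seen, with no test.

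Genes of the same families under other names were read from the same fit, and 4 of 10 tested rose in both fits while none fell. By the same rule 1.58% of all tested genes were higher and 0.192% lower without scaling, and 1.36% and 1.29% with it. The list was chosen with earlier results of these data known, so its count is a description. Tnf, the inflammatory cytokine that gives the superfamily its name, had 1.11, 2.75, 2.79 and 2.15 FPKM in wildtype and 11.1, 6.26, 7.35 and 9.19 FPKM in Has-tKO. Has-tKO was 3.86 times as high (log2 fold change 1.58, SE 0.23, adjusted p = 0.0109), with no overlap. The fractalkine gene Cx3cl1 (1.14, adjusted p = 0.0156), its receptor Cx3cr1 (1.35, adjusted p = 0.0371) and Ebi3, a subunit of IL-27 and IL-35 (0.86, adjusted p = 0.0387), also rose. The median of the 10 was 0.70, and 0.53 after scaling, where that of all tested genes was 0.16 and -0.03.

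Downstream of the receptors, of 48 listed genes of JAK-STAT, IL-1 and TNF signalling 29 were tested, and 1, Ptpn6, rose in both fits while none fell. Of all tested genes 1.58% were higher without scaling and 1.36% with it, and 1 of 29 is not set apart from that background. Ptpn6, which acts in blood cells and dampens cytokine receptor signalling, had 9.33 ± 3.09 and 22.5 ± 4.16 FPKM (1.22, SE 0.22, adjusted p = 0.0229). The kinase Irak2, which relays IL-1 signals, had 2.14 to 4.94 FPKM in wildtype and 5.29 to 8.55 FPKM in Has-tKO (0.95, adjusted p = 0.0550), and the adaptor Traf1 had 0.800 ± 0.320 and 1.80 ± 0.231 FPKM (0.65, adjusted p = 0.0740). Stat3, the main factor below Il6st, had 14.5 ± 3.65 and 17.1 ± 2.57 FPKM (0.25, adjusted p = 0.563, and 0.01 after scaling). The median of the 29 was 0.26 and, after scaling, 0.07, where that of all tested genes was 0.16 and -0.03.

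The calls rest on all 8 libraries to differing degrees. With 1 wildtype library left out, 10, 5, 13 and 1 members passed for replicates 1 to 4 in turn, and with 1 Has-tKO library left out 1, 2, 6 and 5 passed, all higher. Over all 9916 genes 349, 72, 345 and 10 passed in the first 4 of these fits and 12, 70, 115 and 60 in the others, against 176 with all libraries, so the members' counts moved with those of all genes. Cxcl2 passed in each of the 8 unscaled and 8 scaled fits, with an adjusted p of at most 0.00685 without scaling, under the filter that it reached through the Has-tKO libraries alone. Cxcr4 passed in 5 of the 8 unscaled fits, and missed the threshold without wildtype 4, Has-tKO 1 or Has-tKO 2 (adjusted p = 0.0669 to 0.103). Cxcl1 and Tnfrsf12a passed in 4: Cxcl1 missed the threshold if replicate 2 or 4 of wildtype, or 1 or 4 of Has-tKO, was left out (0.0623 to 0.115), and Tnfrsf12a without wildtype 4 or replicate 1, 2 or 3 of Has-tKO (0.0613 to 0.103). Cxcl14 passed in 3 and missed it without wildtype 4 or any 1 Has-tKO library (0.0569 to 0.0981). Il21r passed in 3 and missed it without replicate 2 or 4 of wildtype or 1, 2 or 4 of Has-tKO (0.0640 to 0.126). Il4ra and Tnfsf9 passed in 2, those without wildtype 1 or wildtype 3 (otherwise 0.0712 to 0.157 and 0.0568 to 0.157). In the 16 fits the log2 fold change of each of the 9 genes stayed between 0.49 and 1.78. Without wildtype 3 Cxcl16, Osm, Tnfrsf21 and Tnfrsf26 passed too (adjusted p = 0.0260, 0.0211, 0.0380 and 0.0249). Cxcl16 also passed without wildtype 1 (0.0303), Osm without Has-tKO 4 (0.0442) and Tnfrsf21 without Has-tKO 3 (0.0475). The passes of Osm are a description, since it reached the filter through the Has-tKO libraries alone. Of the genes under other names, Tnf and Cx3cl1 passed in 6 of the 8 unscaled fits and missed the threshold without wildtype 4 (adjusted p = 0.0547 and 0.0596) or Has-tKO 1 (0.0541 and 0.0756). Cx3cr1 passed in 3 and missed it without wildtype 4 or any 1 Has-tKO library (0.0520 to 0.147). Ebi3 passed in 3 and in none of the scaled fits, and missed the threshold in the unscaled fits without the same 5 libraries as Il21r (0.0772 to 0.157). Ptpn6 passed in 5 and missed it without wildtype 4, Has-tKO 1 or Has-tKO 4 (0.0678 to 0.106).

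**Figure D5:**
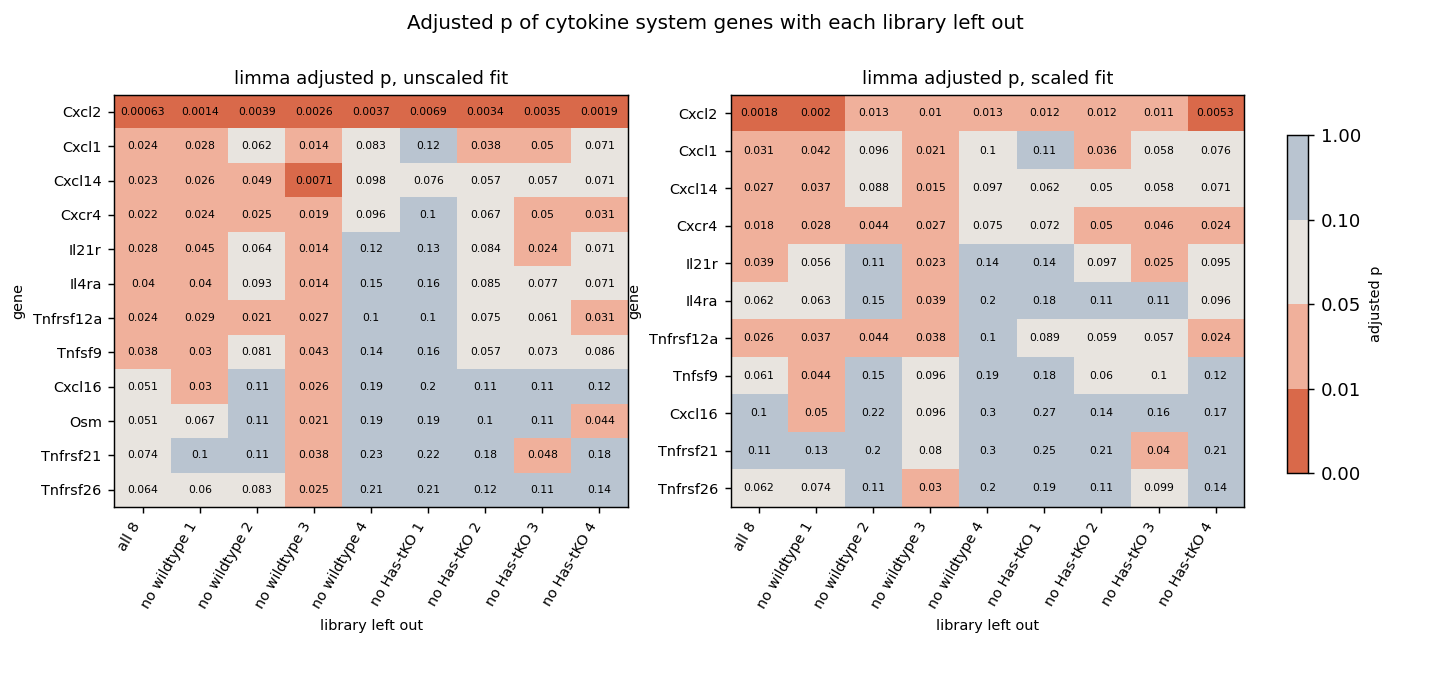
Limma adjusted p of cytokine system genes (rows) with all 8 libraries and with each library left out in turn (columns), in the unscaled fit (left) and the scaled fit (right), coloured by its size. Cxcl2 stays at or below 0.00685 in the unscaled fits, while each of the other 7 genes shown that passed with all libraries exceeds 0.05 when wildtype 4 or Has-tKO 1 is left out.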

How the data were processed

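RNA sequencing of 8 libraries from ribosome-depleted RNA (100 ng, Nextera tagmentation) was deposited by the authors as 1 table of FPKM values. The submitters' processing notes name the builds GRCm39 and hg38 and the tools StringTie, HISAT2, fastp, bcl2fastq and DESeq2, without versions or roles. No strand setting is stated. No counts were used, so depth and counting error are unknown.

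Values were taken as log2(FPKM + 1). The 9916 named loci that reached 1 FPKM in 4 or more libraries were fitted with genotype in limma 3.58.1 (R 4.3.3, intensity trend, Benjamini-Hochberg, adjusted p threshold 0.05). No rescaling was applied in this fit. Values after median-ratio scaling, over 19489 loci above 0 in every library, are given beside it. The fit was tested on simulated data for Has-tKO against wildtype with 9916 genes. It recovered 66 of 100 genes changed 2-fold and 98 of 100 changed 4-fold in FPKM + 1, with 8 false calls in that 1 simulation of both sizes. The changed genes all had a mean above 2 on the log2(FPKM + 1) scale. Recovery of lower genes, such as Cxcl1, Cxcl2, Il21r and Tnfsf9, was therefore not tested. Noise was drawn for each gene on its own, without shifts of whole libraries. Named in full are the members that pass either fit and a fixed list with roles in bone or inflammation; other names were chosen after their values were seen. The members and lists were chosen with earlier results of these data known. Shared 50-base words come from GENCODE M21 transcripts, promoters and neighbours from RefSeq GRCm38.p6. Alternatives were another pseudocount, filter, scaling, robust fit and replicate block, and leaving out libraries. 1 of the members that passed is counted but not reported here.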

Additional observations from a re-analysis of the deposited data

Results flagged for a closer look

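Among the 82 groups of 4 libraries looked at (41 genes in 2 genotypes), 4 hold 1 library that lies far from the other 3, where chance gives about 1 in 20. The count is near that share. Cxcl2 was low in wildtype 4 (0.131 FPKM, where the nearest other wildtype library had 0.295). Osmr was low in Has-tKO 4 (7.52 FPKM, nearest 12.1), as was Tnfrsf10b (3.04 FPKM, nearest 4.87). Tnfrsf13b, a receptor of B cell survival factors, was low in Has-tKO 3 (0.907 FPKM, nearest 2.98).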

How the results depend on the processing

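The count of 9 higher members was 7 after scaling, 8 with a pseudocount of 0.1, 6 with all loci tested, 9 with a robust fit, and 11 when both wildtype 1 and Has-tKO 4 were dropped, and no member was lower in any of these. It was 4 with a mean filter of 0.1 FPKM and 1 (Cxcl2) with no filter on low values, where 2 of 27220 genes passed. With 1 library left out it ran from 1 to 13. With scaling as well it was 8, 4, 9 and 1 without wildtype 1 to 4, and 1, 4, 5 and 3 without Has-tKO 1 to 4. The count of 1 signalling gene ran from 0 to 2 with 1 library left out, with and without scaling, and was 0 with no filter. Same-numbered libraries of the 2 genotypes did not all deviate together (correlations of their deviations from the group means across genes of -0.08, 0.31, -0.12 and -0.06). Pairs with different numbers ran from -0.34 to 0.34. With 4 libraries per genotype these values cannot exclude a shared batch, day or litter, and no label ties the numbers to one. With the replicate number as a block 9 members passed, 7 of them the same, with Cxcl10 and Osm in place of Il4ra and Tnfsf9. Osm had reached the filter through the Has-tKO libraries alone. The replicate block with scaling, chosen after seeing the data, left 3 members and 0 signalling genes. The log2 fold change of Cxcl12 was -0.21 after scaling, -0.27 with both libraries dropped, and -0.21 to 0.22 with 1 left out. That of Il13ra1 was -0.13, -0.060 and -0.24 to 0.29 in the same order. Il18bp was at -0.11 after scaling and Il11ra1 at 0.062 with both libraries dropped. With 1 left out, Il11ra1 ran from -0.20 to 0.093, Osmr from -0.014 to 0.49 and Tnfrsf19 from -0.012 to 0.42. The cause of these changes was not tested.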
